A study of Drosophila melanogaster with 2 samples.

Results

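Exonic Mnt peaks far from promoters are described here: 204 of the 7451 reproducible dm6 peaks in adult flies had their summit inside an annotated exon and more than 500 bp from every annotated transcription start site (TSS). They were chosen from those 7451 by position alone, from each summit and the Ensembl release 115 annotation with transposable elements left out. Signal entered through the list itself, which is the 7451 strongest regions of both replicates pooled. The 204 exonic peaks made up 2.74% of the reproducible peaks (95% exact interval 2.38 to 3.13%, counting error only). By exon, 66 lay in 3′ UTRs, 61 in 5′ UTRs, 42 in exons of non-coding transcripts and 35 in coding sequence. The first that applied of 5′ UTR, coding exon, 3′ UTR and non-coding exon gave the class of a summit that transcripts annotate differently.

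The study mapped the chromatin binding of Mnt by immunoprecipitation and sequencing (ChIP-seq) in whole adult female Drosophila melanogaster. There was 1 group, with 2 biological replicates of a single stable transgenic line in which Mnt carries GFP at its C terminus; an antibody against GFP was used, and chromatin was sheared by sonication. The age of the flies is unknown per the labels, which also do not state the promoter that drives the fusion. The control libraries were not analysed here. The lists hold no expression values, so the labelled stage and sex were not checked against marker genes, and depth in reads is unknown. Whole flies mix many tissues, so a weak peak in many cells and a strong peak in few cells cannot be told apart.

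Mnt is a basic helix-loop-helix leucine zipper protein that pairs with Max and binds E-boxes, above all CACGTG, the same sequence that Myc-Max dimers bind. In flies, Mnt is known as a repressor that opposes Myc in the control of cell growth. Mnt and Myc are usually found at promoters, so summits inside exons and away from starts are the less usual kind of site.

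CACGTG lay within 100 bp of the summit in 21 of the 204 exonic peaks. The sites of 8 of the stronger such peaks are shown, since they place the known Mnt recognition sequence inside annotated exons of all 4 classes. They were read from the RefSeq Release 6 genome (dm6) on the strand of the host transcript, and capitals mark CACGTG.
lncRNA:CR9162: tggtttgcgatgCACGTGttggcggtcaat
CG16989: cagaaatatgacCACGTGcaaaacagtcag
Calr: aaatggtggtgcCACGTGaacaaatcacgg
asRNA:CR44911: cgcacacttacaCACGTGgagccgccaaca
Ifrd1: aatcggaaccaaCACGTGcgtttcagtagt
sfl: cgattgtcgattCACGTGccaaaaaaaagt
Coq4: cttgctctctctCACGTGcttttctaatta
Srrm234: tttgaccgcccaCACGTGgaactacgcggc
The lncRNA:CR9162 site is chr2L:6079140-6079169 on the plus strand, in a non-coding exon. The CG16989 site is chrX:796413-796442 on the plus strand, in a 3′ UTR. The Calr site is chr3R:9628843-9628872 on the minus strand, in the 3′ UTR of the gene for the endoplasmic reticulum chaperone calreticulin. The asRNA:CR44911 site is chr2L:21179081-21179110 on the plus strand, in an exon that lies inside an intron of bur on the annotation. The 5′ UTR sites are those of Ifrd1 at chr2L:2873903-2873932 (minus strand), sfl at chr3L:6496189-6496218 (plus strand) and Coq4 at chr3L:17431418-17431447 (minus strand). The Coq4 exon is shared with frc. The Srrm234 site is chr3L:1662004-1662033 on the minus strand, and its CACGTG starts at codon position 3 of coding sequence.

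In the pooled list, distal exons together held fewer summits per Mb than introns, and about as many as intergenic sequence. Exons beyond 500 bp of a TSS covered 26.4 Mb, or 19.8% of the genome's bases, and held 2.74% of the peaks. That share is of all peaks, 72.0% of which lay within 500 bp of a TSS and could not be members. Per Mb, distal exons held 7.71 summits, and coding exons made up 18.4 of the 26.4 Mb. The distal exonic count was 189 of the 7451 strongest regions of replicate 1 and 245 of those of replicate 2. The mean share was 2.91% ± 0.53 (SD, n = 2). The classes of exon differed more from each other than the replicates did. Coding exons held 1.90 summits per Mb, with 1.85 in replicate 1 and 2.18 in replicate 2. 3′ UTRs held 11.1 per Mb, with 9.95 and 14.7 in the replicates. Non-coding exons held 38.3 per Mb, with 31.0 and 45.6, and 5′ UTRs held 58.5, with 59.4 and 65.2. Introns beyond 500 bp held 30.3 per Mb (29.5 and 34.9) and intergenic sequence 7.72 (8.19 and 7.97). Coding exons were thus the lowest class and 5′ UTRs the highest beyond 500 bp, in the pooled list and in each replicate, while non-coding exons and introns overlapped between replicates. These are descriptions of the lists; no test was run on densities.

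**Figure D1:**
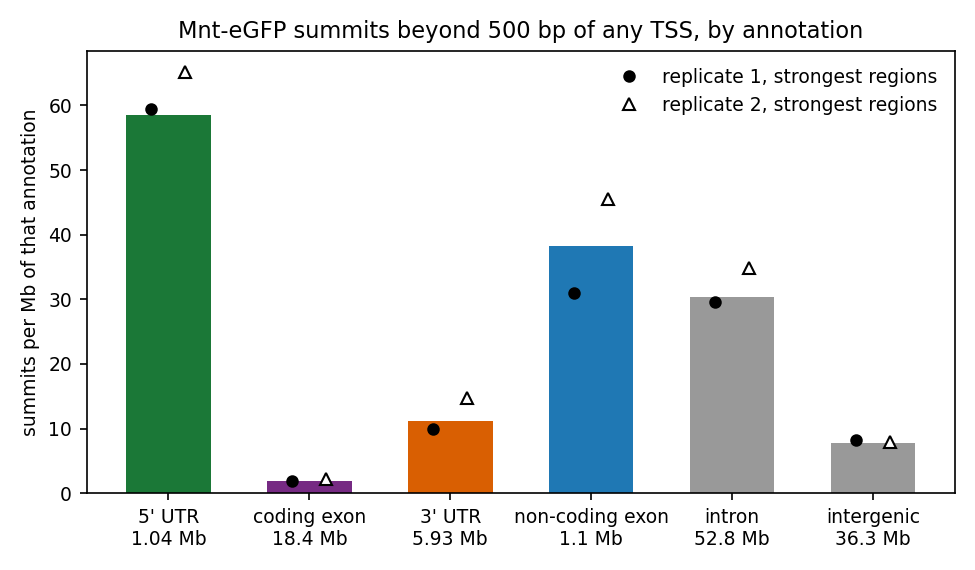
Reproducible summits beyond 500 bp of a TSS per Mb of each annotation (bars), with the strongest 7451 regions of replicate 1 (circles) and replicate 2 (triangles) counted the same way. Coding exons stand at 1.90 per Mb and 5′ UTRs at 58.5; the labels under the bars give the Mb covered.

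At matched distances up to 5000 bp, the pooled density of 5′ UTRs did not stand above that of introns. Between 500 and 1000 bp, 5′ UTRs held 96.5 summits per Mb and introns 102. In replicate 1 the values were 101 and 105, and in replicate 2 they were 119 and 111, so the order differed between the replicates at this distance. From 1000 to 2000 bp, 5′ UTRs held 41.8 per Mb and introns 61.4, and from 2000 to 5000 bp 15.4 and 33.3. Beyond 5000 bp, 5′ UTRs stood at 30.7 per Mb against 9.91 for introns, but on only 5 peaks. Coding exons stayed low at every distance. They held 1.85 per Mb at 500 to 1000 bp, 2.09 at 1000 to 2000 bp, 2.23 at 2000 to 5000 bp and 1.18 beyond. At 500 to 1000 bp the replicates gave 2.54 and 2.31 per Mb for coding exons. 3′ UTRs held 9.31, 19.5, 10.1 and 4.44 per Mb over the same 4 ranges, and non-coding exons 48.1, 42.2, 27.9 and 8.62. Intron and 5′ UTR summits thus thinned with distance up to 5000 bp, and the coding density showed no such fall over that range.

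The exonic share rose as regions became weaker, and so did the intronic share. Introns held 14.8% of pooled regions at ranks 1 to 500, 26.5% at ranks 4001 to 7451 and 47.1% at ranks 15001 to 30000. The share within 500 bp of a TSS fell over these ranges, at 82.6%, 65.7% and 26.3%. Of the 500 strongest pooled regions, 1.4% had a distal exonic summit (95% exact interval 0.565 to 2.86%), and the replicates' mean was 1.4% ± 0.57 (SD, n = 2). At ranks 4001 to 7451 the pooled share was 3.22%, with 3.54% ± 0.61 in the replicates. Past the end of the reproducible list it was 5.92% at ranks 7452 to 15000 and 12.7% at ranks 15001 to 30000, where the replicates gave 7.0% ± 1.3 and 15.7% ± 1.6. Coding exons led this rise, from 0 of the 1000 strongest pooled regions to 0.609% at ranks 4001 to 7451 and 6.1% in the last range. The pooled 3′ UTR share rose too, from 0.6% at ranks 1 to 500 to 1.07% at ranks 4001 to 7451 and 4.73% in the last range. Among the 500 strongest regions the coding share was 0% in replicate 1 and 0.4% in replicate 2. The last coding share was 6.89% in replicate 1 and 11.1% in replicate 2. The 5′ UTR share was 0.4% among the 500 strongest and 1.03% in the last range, and it did not exceed 1.40% in any pooled range. Of the 2560 distal exonic regions among the 30000 pooled regions, 204, or 7.97%, were in the reproducible list. By class this was 18.9% in 5′ UTRs, 18.7% in non-coding exons, 6.89% in 3′ UTRs and 3.32% in coding exons, beside 13.8% in introns and 41.4% within 500 bp of a TSS.

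**Figure D2:**
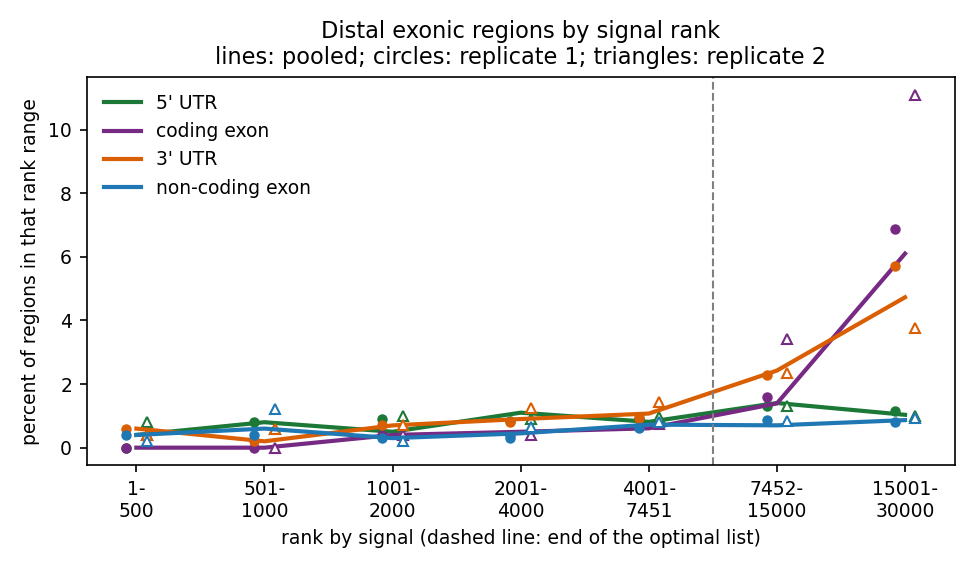
Percent of pooled (lines), replicate 1 (circles) and replicate 2 (triangles) regions in each signal rank range with a summit in each class of distal exon; the dashed line is the end of the reproducible list. Pooled coding summits go from 0% at ranks 1 to 1000 to 6.1% at ranks 15001 to 30000, while the 5′ UTR line stays at or under 1.40%.

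The deposited signal, the peak caller's own value for each region, had a median of 125 in the exonic peaks and ran from 77.6 to 1091. Among the 3726 strongest peaks were 83 of the 204 (40.7%, 95% exact interval 33.9 to 47.8%), beside 39.1% of the 1600 distal intronic peaks. The difference from intronic peaks was 1.62 percentage points (two-sided Fisher's exact test, adjusted p = 1). It was 54.1% of the 5367 peaks within 500 bp of a TSS, so exonic peaks were less often strong than promoter peaks (odds ratio 0.581, two-sided Fisher's exact test, adjusted p = 0.00150). These tests take peaks as units and compare classes of peaks in these 2 libraries, not samples, and neighbouring peaks are not independent. By class the median signal was 145 in 5′ UTRs, 127 in 3′ UTRs, 113 in non-coding exons and 105 in coding exons, beside 150 near TSSs. Of the 5′ UTR peaks, 52.5% were among the 3726 strongest, near the promoter share. The share was 34.8% in 3′ UTRs, 35.7% in non-coding exons and 37.1% in coding exons. Single classes were not tested. Of the 500 strongest peaks 7 were exonic, and none of those 7 was coding.

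**Figure D3:**
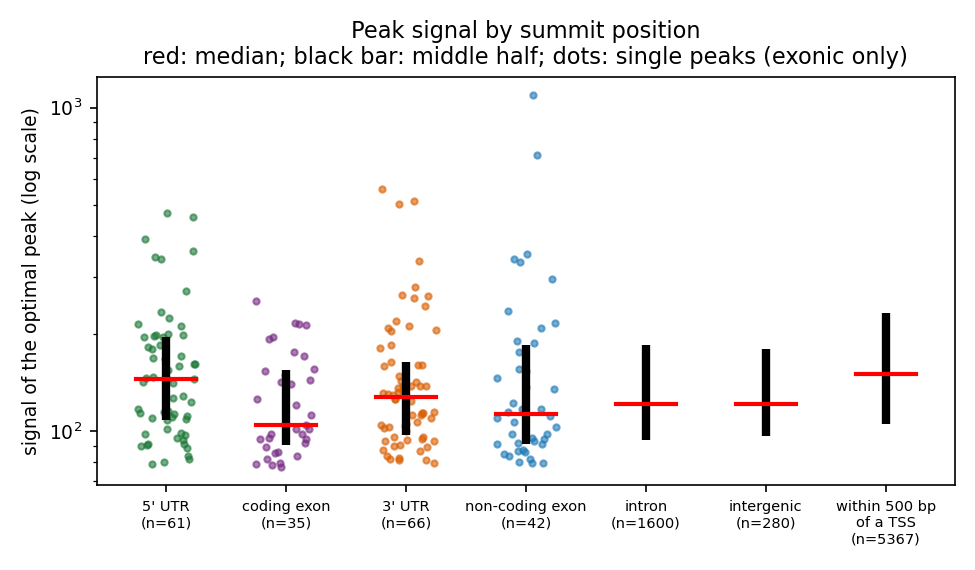
Deposited signal of each distal exonic peak by class (dots), with the median (red) and interquartile range (black bar); intronic, intergenic and promoter peaks are shown as median and range only. Class medians run from 105 in coding exons to 145 in 5′ UTRs, and the 2 highest exonic peaks are in non-coding exons at 1091 and 716.

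The peaks in non-coding exons included the strongest of all. There were 42, in 36 genes, of which 37 lay in genes named as lncRNA and 5 in antisense RNAs, and 26 were in transcripts with a single exon. The strongest lay in exon 2 of lncRNA:CR9162 (FBgn0031778), at chr2L:6078719-6079347, with its summit 643 bp from the gene's own start. Its signal was 1091 in the pooled list, 670.4 in replicate 1 and 465 in replicate 2. It ranked 60 in the pooled list, 97 in replicate 1 and 14 in replicate 2, so it was among the strongest regions of both. The nearest protein-coding start was that of Kr-h1, a zinc-finger transcription factor of the juvenile hormone response, 3507 bp away. No reproducible summit lay within 500 bp of the start of lncRNA:CR9162, although the called region reached into that range.

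The next strongest in this class was lncRNA:Vinr (FBgn0287633), at chrX:12750835-12751721, with a signal of 716 in the pooled list, 581 in replicate 1 and 137 in replicate 2. The replicates thus ranked it 145 and 579. lncRNA:CR44619 starts 541 bp from that summit and held a further 2 exonic peaks, with signals of 176 and 97.8. The peak in lncRNA:CR46035, a gene inside an intron of osa, had 353 in the pooled list, 299 in replicate 1 and 57.5 in replicate 2. The peak in lncRNA:CR42839 had 341, 211 and 130.4 in the same order, and that in asRNA:CR44911 had 333, 219 and 115. None of the 5 strongest peaks in non-coding exons had a reproducible summit within 500 bp of its host gene's start. This counts summits only. The called regions of the lncRNA:CR9162, lncRNA:Vinr and asRNA:CR44911 peaks reached within 500 bp of a TSS. Over the class, 18 of 42 host starts had one. Of the 42, 18 also lay in an intron of another gene, so their binding cannot be placed with 1 gene alone.

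The 3′ UTR peaks lay close to transcript ends, a place that the definition of the class largely sets. No such shares were counted for all 3′ UTR bases. Of 66, 60 were in the last exon, 38 had their summit within 500 bp of the transcript's end, and 64 lay beyond the midpoint of the gene. The strongest was in stas (FBgn0030850), at chrX:17624753-17625403, with 559 in the pooled list, 458 in replicate 1 and 115 in replicate 2. It was exonic in some but not all transcripts that span it, and not in a canonical transcript. CG16989 (FBgn0025621) had 516, 344 and 174, at chrX:796284-796704, in a gene with a single exon, 3375 bp from the gene's start and without a reproducible peak at that start. A weaker summit lay 200 bp from it.

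Tctp (FBgn0037874), the translationally controlled tumour protein and a regulator of growth through TOR signalling, had its stronger 3′ UTR summit at position 11211619 of arm 3R. The signal there was 504 in the pooled list, 325 in replicate 1 and 177 in replicate 2, and a further summit 199 bp away had 158. The start of Tctp had a peak of 410, so both ends of this short gene were bound. The peak at the end of Calr had 337 in the pooled list, 239 in replicate 1 and 94.9 in replicate 2, with its summit 124 bp from the transcript's end. The start of Calr had a peak of 316. Lsd-2, a perilipin of lipid droplets, held 3 summits in its 3′ UTR, with signals of 279, 132 and 107. Act5C, a cytoplasmic actin gene, held 2, with 204 and 124. The 3′ UTR hosts had a bound start in 57 of 66 cases, and in 45 the peak at the start was the stronger.

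By definition 5′ UTR peaks lie ahead of coding sequence, so their place near starts is largely set by the class. They lay nearest to promoters, with a median of 753 bp to the closest TSS. That TSS was one of the host gene's own in 55 of 61. The strongest was in cbt (FBgn0043364), a zinc-finger transcription factor of the sugar response, at chr2L:478702-479551. It had 473 in the pooled list, 311 in replicate 1 and 224 in replicate 2, and stood 621 bp from the gene's start. spen (FBgn0016977), a nuclear RNA-binding protein of the SPOC family, held 3 summits in 1 exon of 2993 bp. Their signals were 459, 341 and 179, and the start of spen had a peak of 285. The first of them had 309 in replicate 1 and 157 in replicate 2.

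Fer1HCH, the ferritin heavy chain of iron storage, had a 5′ UTR peak of 393 in the pooled list, 235 in replicate 1 and 166 in replicate 2. Tango5 had 361, 204.9 and 158 in the same order, and CG7987 345, 262 and 82.3. In each of these 5 genes the peak was outside the exons of at least 1 transcript that spans it, of the same or another gene. The peaks described in Tango5 and CG7987 were exonic in a canonical transcript, and those in cbt, spen and Fer1HCH were not. The cbt peak also lay in an intron of ush. Only 27 of the 61 5′ UTR peaks were exonic in every transcript that spans the summit, beside 55 of 66 in 3′ UTRs. The class also held 2 peaks in Kr-h1 of 197 and 79.0, the second the third weakest of the 204, and single peaks in the 5′ UTRs of wts (162), the Hippo pathway kinase, and cic (145), the HMG-box repressor.

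Coding peaks were few, and none was among the 1000 strongest of the reproducible list. The strongest lay in exon 3 of bin3, an RNA methyltransferase, with 252 in the pooled list, 149 in replicate 1 and 95.2 in replicate 2. Its summit was 6492 bp from the gene's own closest start, and the centre of its CACGTG, which starts at codon position 3, was 75.5 bp from the summit. Pldn, a subunit of the BLOC-1 complex, had 216, 125 and 99.4, in an exon that Sugb shares. Kcmf1 had 213, 158 and 52.2. klar, which positions nuclei through its KASH domain, had 214 in the pooled list and 182 in replicate 1, and no overlapping region in replicate 2. otp, a homeobox gene, had 195 and 179, and was likewise not listed in replicate 2. Thus 2 of the 5 strongest coding peaks rested on replicate 1. The weakest of all 204 were also coding, in CG7139 (77.6) and frj (78.5). Of the 35 coding summits, 10 lay within 50 bp of an exon edge, and 16 of the 35 regions were entirely exonic.

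**Figure D4:**
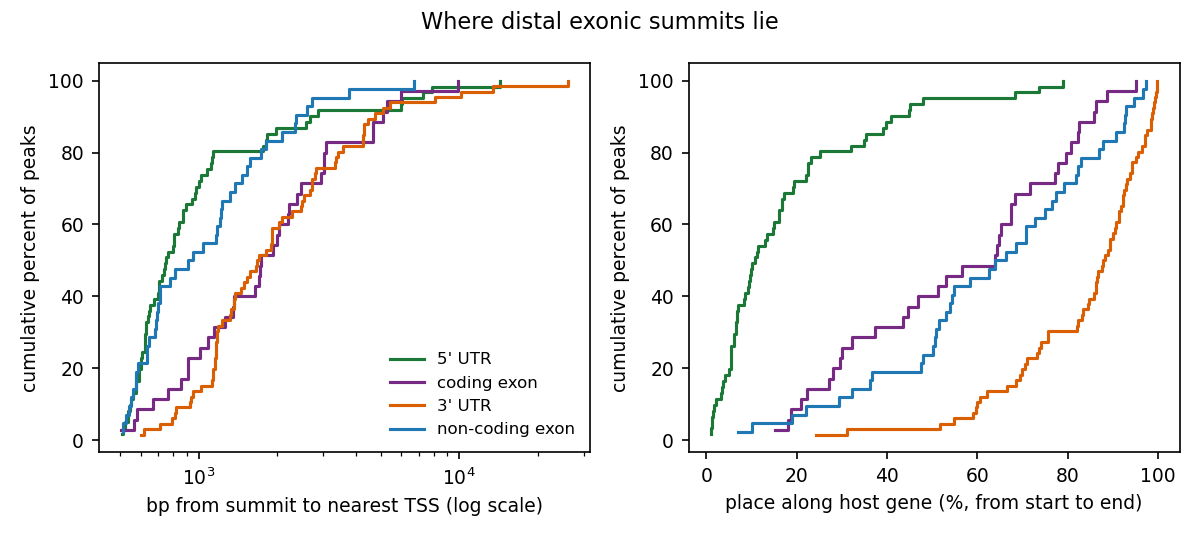
Cumulative percent of distal exonic peaks by distance from the summit to the nearest TSS (left, log scale) and by place along the host gene (right, percent of its length from start to end), by class. 5′ UTR peaks have a median distance of 753 bp and 3′ UTR peaks 1697 bp. On the right, 64 of 66 3′ UTR peaks lie beyond the midpoint. Much of this order follows from how the classes are defined.

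Across all 204, the nearest TSS was at a median of 1172 bp, within 1000 bp in 82 cases and beyond 5000 bp in 16. The closest to the limit were a summit in the shared exon of CG12379 and CG8191 at 504 bp (signal 140.3), a 5′ UTR summit at 509 bp (234) and lncRNA:CR44366 at 511 bp (79.9). Just inside the limit, and so not counted, were CNBP at 500 bp (239), tweek at 497 bp (132) and CG12054 at 497 bp (90.7). The exonic call depended on the transcript or gene for part of the set. Of 204 summits, 129 were exonic in every transcript that spans them, those of other genes included, and 171 in a canonical transcript. Of the 204, 34 also lay in an intron of another gene. Of the called regions, which are wider than the summit, 135 lay entirely in exons and 156 wholly beyond 500 bp of a TSS. The peaks fell in 179 genes, 22 of which held more than 1. Another reproducible summit lay within 400 bp of 38 of the 204, and for 30 of these it was at most 220 bp away, as in Tctp, Lsd-2, Act5C and Kr-h1. Arm X held 24.5% of the exonic peaks and 19.9% of all reproducible peaks, and arm 2L 11.3% and 16.8%.

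In each replicate's full list of 30000, an overlapping region was listed in replicate 1 for 203 of the exonic peaks and in replicate 2 for 199. It was listed in both for 198 (97.1%), near the 97.6% of all reproducible peaks. Where several regions overlapped the strongest was taken, so summits that are close together can carry the same replicate value. Over the 198 the median signal was 87.4 in replicate 1 and 51.0 in replicate 2, and the median ratio was 1.74, beside 1.89 in introns and 2.29 near TSSs. Signals of the 2 replicates had a Spearman correlation of 0.586 and a Pearson correlation of log2 signals of 0.621, a description across peaks that share libraries. Besides klar and otp, myo (117), Hr4 (112) and REG (81.6) were not listed in replicate 2. A summit of lncRNA:CR44619 (176) was not listed in replicate 1.

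Counting only the 7451 strongest regions of each replicate, 150 of 204 exonic peaks were found in both (73.5%, 95% exact interval 66.9 to 79.4%), beside 77.4% of all reproducible peaks. The share was 73.5% in distal intronic peaks (two-sided Fisher's exact test, adjusted p = 1) and 79.3% near TSSs, a difference of -5.79 percentage points that did not pass the threshold (adjusted p = 0.284). By class it was 48 of 61 in 5′ UTRs, 51 of 66 in 3′ UTRs, 28 of 42 in non-coding exons and 23 of 35 in coding exons. Of the 83 exonic peaks among the 3726 strongest, 6 were not found in both, namely klar, otp, the stronger lncRNA:CR44619 summit, Mef2 (200 pooled, 176 in replicate 1, 23.8 in replicate 2), JIL-1 (198, 177 and 22.0) and Pi3K92E (162, 124 and 7.84). Each of these but lncRNA:CR44619 was high in replicate 1 and low or unlisted in replicate 2. Within the 3726 strongest peaks the exonic share found in both was 92.8% against 98.9% of intronic peaks, a difference of -6.11 percentage points (two-sided Fisher's exact test, adjusted p = 0.0266) that was 0.029 points over the whole list.

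**Figure D5:**
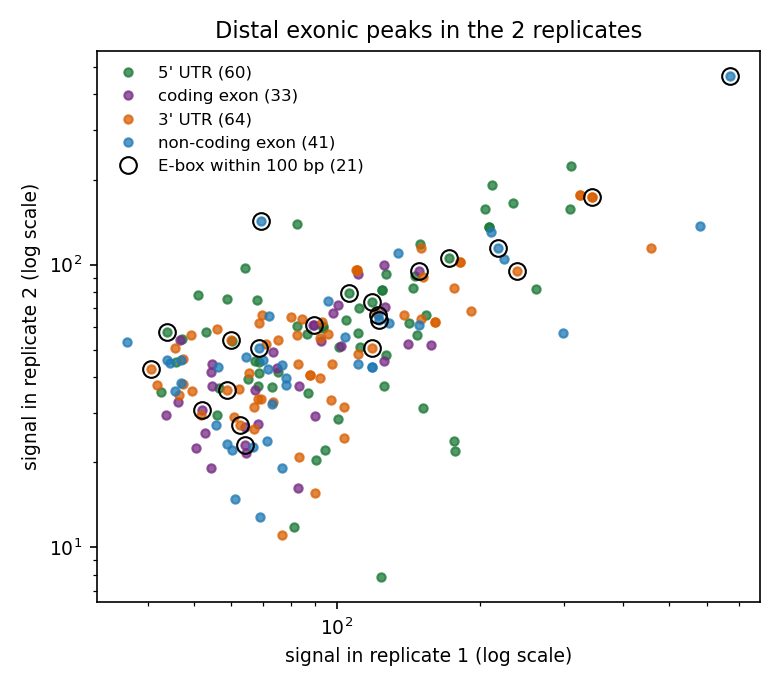
Signal in replicate 1 against signal in replicate 2 (both log scales) for the 198 exonic peaks listed in both, coloured by class, with the peaks that hold CACGTG within 100 bp circled. lncRNA:CR9162 stands at the top right at 670.4 and 465, and the lowest replicate 2 value, 7.84, is Pi3K92E.

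CACGTG occurred in 21 of 204 exonic peaks (10.3%, 95% exact interval 6.49 to 15.3%), beside 8.64% of all reproducible peaks. It was in 2.61% of all windows of the same length placed on distal exons. The share was 10.8% in distal intronic peaks, which differed by -0.52 percentage points (two-sided Fisher's exact test, adjusted p = 1), and 7.83% near TSSs (adjusted p = 0.752). By class it was found in 6 of 42 non-coding exon peaks, 7 of 66 in 3′ UTRs, 4 of 35 in coding exons and 4 of 61 in 5′ UTRs. The matching shares of all windows, which were not matched to the peaks for GC content, were 2.80%, 1.45%, 2.98% and 2.35%. The peaks' share exceeded that of their own class of sequence in all 4 classes, although the lower bound for 5′ UTRs, 1.82%, lay under it.

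The median signal was 164 where CACGTG was present and 123 where it was not. It was present in 12 of 83 among the 3726 strongest (14.5%) and in 9 of 121 of the rest (7.44%), with exact intervals of 7.70 to 23.9% and 3.46 to 13.7% that overlap. The median distance from its centre to the summit was 35.5 bp, and in 10 of 21 it was within 30 bp. In 14-3-3zeta it was 4.5 bp from the summit (signal 164), in Srrm234 8.5 bp (149) and in sfl, which modifies heparan sulfate, 12.5 bp (195). Among the strongest peaks it lay farther out, at 58.5 bp in lncRNA:CR9162 and 94.5 bp in CG16989. The weaker hosts included IscU (92.9), Cul5 (86.7), Atg4b (85.3), Pka-R1 (83.7) and Myd88 (81.6). The remaining hosts were CG13323 (89.6), sbb (98.2), lncRNA:CR44642 (122), lncRNA:CR46075 (187), the weaker lncRNA:CR44619 summit (97.8) and lncRNA:CR44468 (216). The last had 69.2 in replicate 1 and 142 in replicate 2, and 3 of the 21 peaks were higher in replicate 2, beside 17 of the 198 exonic peaks listed in both.

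A panel of 10 motifs was searched on both strands within 100 bp of each summit, with overlapping matches counted for each motif. The E-box variant CATGTG was in 23.0% of exonic peaks and 8.72% of all distal exon windows, and CACGCG in 11.3% and 4.56%. CATGCG was in 6.37% and 6.27%, and CAGCTG, an E-box of another type, in 10.8% and 11.8%, and for both the share of windows lay inside the exact interval of the peaks (3.44 to 10.7% and 6.88 to 15.9%). The windows are mostly coding, unlike the peaks, so shares by class can differ. CACGCG was in 21.4% of non-coding exon peaks and 3.59% of their windows, and in 9.09% and 2.73% in 3′ UTRs. In 5′ UTRs it was in 9.84% and 5.67%, and in coding exons in 5.71% and 5.15%. For these last 2 classes the share of windows lay inside the exact interval (3.70 to 20.2% and 0.700 to 19.2%). In 3′ UTRs CAGCTG was in 15.2% of peaks (exact interval 7.51 to 26.1%) and 4.42% of windows. Peaks and windows were not matched for GC content. In 3′ UTRs the median GC of peaks was 42.3% and the mean of windows 35.9%. Over all distal exons these were 45.8% and 47.6%. GAGAGA, the core of GAGA factor sites, was in 19.6% of all exonic peaks and 5.72% of all distal exon windows. It was in 31.1% of 5′ UTR peaks and 10.1% of 5′ UTR windows, and in 31.0% of non-coding exon peaks and 7.13% of their windows. In 3′ UTRs it was in 10.6% of peaks and 7.42% of windows, and in coding exons in 1 of 35 peaks (2.86%) and 4.84% of windows. TGAGTCA, the AP-1 sequence, was in 2.94% of all exonic peaks and 1.17% of all distal exon windows. That share of windows also lay inside the exact interval of the peaks (1.09 to 6.29%). AGATAA, which factors of the GATA family bind, was in 15.7% of all exonic peaks and 8.21% of all distal exon windows. In 3′ UTRs AGATAA was in 12.1% of peaks and 12.9% of windows. The core promoter elements were rare in peaks and windows alike. TATCGATA was in 1 peak and 0.273% of windows, and GGTCACAC in 0 of 204 peaks, where the exact interval reaches 1.79% and 0.302% of all windows held it. For none of the 10 did the difference from distal intronic peaks pass the threshold (two-sided Fisher's exact tests, adjusted p = 1 for each). Of the 204 peaks, 66 held none of the 10.

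Most exonic peaks were in genes that were also bound at a start. A reproducible summit lay within 500 bp of a start of the host gene for 154 of 204 (75.5%, 95% exact interval 69.0 to 81.2%), and in 105 the peak at the start was the stronger. For distal intronic peaks the share was 88.7%, a difference of -13.2 percentage points (odds ratio 0.393, two-sided Fisher's exact test, adjusted p = 1.69e-05). The shares were scored by different rules, so this comparison is not like for like. An exonic peak counted only genes whose exon held its summit, an intronic peak any gene with a transcript spanning it. Of the 204 exonic summits, 34 also lay in an intron of another gene, whose start was not counted for them. Of the non-coding hosts, 18 of 42 had a bound start. With protein-coding hosts alone the shares were 84.0% and 88.8% and the difference no longer passed (-4.83 percentage points, Fisher's exact test, adjusted p = 0.387), a setting chosen after seeing the data. It also missed the threshold with peaks exonic in every transcript (-8.63 percentage points, Fisher's exact test, adjusted p = 0.0576). Of 143 distinct protein-coding host genes, 119 had a bound start, beside 38.1% of all protein-coding genes; this was not tested.

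Of 13945 protein-coding genes, 143 (1.03%) held an exonic peak, and 38.1% had a bound start, the shares beside which the gene groups are to be read. None of 10 genes of the Myc network, which include Mnt, Max and Myc, held an exonic peak, although all 10 had a peak at a start. No exonic peak was in 40 nucleolar and ribosome biogenesis genes, of which 39 had a bound start, or in 25 translation factors, of which 24 did. Among 85 cytosolic ribosomal protein genes, 80 had a bound start and 1, RpL12, held a 3′ UTR peak (142 pooled, 97.6 in replicate 1, 44.5 in replicate 2). Of 108 developmental transcription factors, 46 (42.6%) had a bound start and 7 (6.48%) held exonic peaks, namely Pdp1, cbt, crol, dsx, ftz-f1, shn and srp. Act5C was the host among 35 cytoskeleton and muscle genes. There was none in the 43 chromatin regulators, 46 RNA-binding and splicing genes, 22 heat shock and chaperone genes or 5 histone genes listed. At a share of 1.03% over all protein-coding genes, groups this small can hold none, so an empty group is not a result about its genes. The lists are not complete: JIL-1, a histone kinase, spen and the chaperone gene Calr held exonic peaks and are in none of them. Empty lists thus do not show that genes of these kinds are missing from the hosts. These counts were not tested against other genes.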

How the data were processed

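The samples were 2 biological replicates of 1 group, numbered by the labels. The authors deposited peak lists on dm6 and dm3, and the dm6 lists were used. Per region the authors deposited their caller's signal and −log10 q-value. Aligner, caller and scaling were not given in the sources used here. All 7451 reproducible peaks sit at the −log10 q cap of 4.22, so signal alone ranked them, and they are the 7451 strongest pooled regions. Replicate lists mix peaks with background, 30000 regions each. Summits were placed on Ensembl release 115 (35497 transcripts, 18164 genes) and windows read from RefSeq Release 6, with 1-based coordinates. A match needed 1 bp of overlap. Shares were compared by two-sided Fisher's exact tests (scipy 1.17.1), Benjamini-Hochberg adjusted over 16 comparisons, threshold 0.05, after a check on simulated data. Per-Mb densities count all bases of a class. Named peaks were the 15 strongest, the 5 strongest of each class, the 3 weakest, those with CACGTG and those nearest the 500 bp limit; other names were chosen after their values were seen. The members, lists and motifs were chosen with earlier results of these data known.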

Additional observations from a re-analysis of the deposited data

How the results depend on the processing

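The difference from promoter peaks in the share among the 3726 strongest kept its direction and its side of the threshold in the 9 alternatives run, between -17.8 and -10.5 percentage points. The difference in bound host starts stayed negative in all 11, and missed the threshold in 3: with protein-coding hosts alone (-4.83 points, added after seeing the data), with peaks exonic in every transcript (-8.63 points) and within the 3726 strongest peaks (-11.3 points). For that difference, exonic and intronic peaks were scored by different rules, as stated above. Differences from intronic peaks that were near 0 changed sign without passing. For CACGTG this was 2.06 points with canonical exons, 0.941 with exonic in every transcript, 0.538 in the 3726 strongest and 0.053 without replicate 2 (-0.105 without replicate 1). For the share among the strongest it was -1.36 with exonic in every transcript, -1.10 without replicate 1, -0.735 without replicate 2 and -0.884 when weaker summits within 400 bp of a stronger summit were dropped (also added after seeing the data). For the share found in both replicates it was -1.11 at a limit of 1000 bp, -0.684 with exonic in every transcript, -0.530 with weaker summits within 400 bp dropped, and -6.11 in the 3726 strongest, where it passed; against promoter peaks it was 0.552 at 250 bp. The counts followed the limits. At 250 bp from a TSS there were 367 exonic peaks, with 174 in 5′ UTRs, 53 coding and 67 non-coding. At 1000 bp there were 122, with 18 in 5′ UTRs and 20 non-coding. With protein-coding TSSs alone 108 were non-coding, and with canonical exons 40 were in 5′ UTRs. Exonic in every transcript left 129, with 27 in 5′ UTRs and 22 non-coding. The 3726 strongest held 83, with 32 in 5′ UTRs, 13 coding, 23 in 3′ UTRs and 15 non-coding. The causes were not tested. Depth in reads is unknown and there is 1 group, so p-values cover the counting of peaks and not the spread between flies.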
